A study of Mus musculus with 13 samples.

Results

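This account follows 33 interferon-stimulated genes, chosen by their gene symbols, through a set of 13 mouse bead arrays of neural stem cells and the cells they were compared with. Of the 33 genes, 32 had a probe among the 25697 on the array, with 52 probes in all, and 26 were detected on at least 1 array and could be tested, out of 10923 genes tested in the whole series. The arrays fell into 7 groups, and each label gives the strain as C3H. The first group, neural stem cells induced from embryonic fibroblasts and recovered in vivo (iNSC in vivo) had 1 array, and their label gives the number 14, with no unit, for the interval since transplantation into the adult brain. In vivo neural stem cells (NSC in vivo) had 1 array, with no mention of transplantation. Induced neural stem cells in culture (iNSC), neural progenitors differentiated from embryonic stem cells (ESC NPC) and neural stem cells in culture (NSC) had 3 clones each, with 1 array per clone. Mouse embryonic fibroblasts (MEF) and embryonic stem cells (ESC) had 1 array each. The labels give no age, no cell sort and no statement that cells were separated from the surrounding brain, so fewer cells of a type and less RNA per cell cannot be told apart in any of these bulk samples. The p-values measure the spread between clones, which is a spread of background signals where no clone detected a gene. Nothing says whether the clones were cultured apart.

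Interferons are secreted alarm proteins of antiviral defence. Type I interferons bind the IFNAR receptor, and their signal passes through the kinases JAK1 and TYK2 to a complex that holds STAT2 and IRF9 and binds the interferon-stimulated response element (ISRE). Interferon gamma, made mainly by T cells and natural killer cells, binds the IFNGR receptor and acts through JAK1 and JAK2 on genes with gamma-activated sites (GAS). The genes they switch on block viral entry, degrade or sense foreign nucleic acid, attack pathogen-containing vacuoles and tune the response itself. In the brain, microglia and endothelial cells are known to respond strongly to both types, while pluripotent stem cells are known to respond weakly to interferon and to keep some of these genes on without it.

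The upstream sequence of 26 of the 33 genes was at hand from RefSeq (build GRCm38.p6, a C57BL/6J genome and not the C3H strain of the arrays). It was searched on both strands, over the 250 bases before each annotated start, for the 9-letter ISRE core GAAANNGAA and the 9-letter GAS motif TTCNNNGAA. The ISRE core was present in 15 of the 26 genes (57.7%), against 8.18% of all 27025 genes in the table. The GAS motif was present in 6 of the 26 genes (23.1%), against 8.13% of all genes. Both were present in 3 genes, Oas1a, Bst2 and Igtp, and in Bst2 the motifs overlap, while 8 genes held neither. A match is a description of the letters only. Shown here, 5′ to 3′ on the strand of the gene, are the 250 bases before an annotated start of 4 genes followed below. Motif letters are in capitals. For Ifit3 and Gbp2b this start lies inside the annotated gene span, which begins at 34583119 and 142594816. Ifit3 holds the ISRE core 3 times, Gbp2b once, Igtp an ISRE core with a GAS motif just before it, and Irf1 a GAS motif alone.
Ifit3, chr19:34583279-34583528, plus strand: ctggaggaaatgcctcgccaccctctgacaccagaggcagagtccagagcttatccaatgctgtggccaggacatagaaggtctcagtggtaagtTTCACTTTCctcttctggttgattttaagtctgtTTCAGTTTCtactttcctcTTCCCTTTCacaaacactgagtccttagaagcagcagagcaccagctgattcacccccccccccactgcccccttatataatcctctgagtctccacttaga
Gbp2b, chr3:142594597-142594846, plus strand: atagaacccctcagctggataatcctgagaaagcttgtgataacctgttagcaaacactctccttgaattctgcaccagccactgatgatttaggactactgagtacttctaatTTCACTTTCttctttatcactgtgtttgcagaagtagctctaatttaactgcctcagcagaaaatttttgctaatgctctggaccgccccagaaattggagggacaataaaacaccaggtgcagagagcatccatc
Igtp, chr11:58199306-58199555, plus strand: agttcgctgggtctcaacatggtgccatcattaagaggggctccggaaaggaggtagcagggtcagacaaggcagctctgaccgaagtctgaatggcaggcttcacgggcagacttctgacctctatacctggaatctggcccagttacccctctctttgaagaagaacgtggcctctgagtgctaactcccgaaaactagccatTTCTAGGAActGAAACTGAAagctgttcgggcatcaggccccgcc
Irf1, chr11:53769764-53770013, plus strand: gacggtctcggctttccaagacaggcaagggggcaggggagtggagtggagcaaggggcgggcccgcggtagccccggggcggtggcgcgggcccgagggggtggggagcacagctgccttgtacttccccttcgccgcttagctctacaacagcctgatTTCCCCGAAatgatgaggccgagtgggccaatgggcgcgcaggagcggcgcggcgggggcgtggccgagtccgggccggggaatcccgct

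Signals below are the deposited bead intensities, background included, and a probe counts as detected where its deposited detection p was under 0.01. Levels are log2 values after background correction and quantile normalization, and each difference is one of such levels, with the standard error from limma and a p-value adjusted over all 10923 genes. The 11 arrays of cultured cells detected 40.8% to 49.9% of probes, with a median signal of 102 to 117. The in vivo arrays stood apart, with 26.2% of probes detected and a median signal of 80.1 for iNSC in vivo, and 26.7% and 79.3 for NSC in vivo. After quantile normalization their lowest detected probe lay at a level of 6.50 (iNSC in vivo) and 6.44 (NSC in vivo), against 4.60 to 5.05 elsewhere. Differences of the 26 genes on them are therefore given with their deposited signals and also after scaling each array by its median alone, whereas those of other gene lists are given after quantile normalization only. Median scaling moves the median of all genes by -0.79 for iNSC in vivo against iNSC and by -0.87 for NSC in vivo against NSC. Folds given below as "at least" are bounds on the quantile-normalized scale alone, and they can exceed the differences found after median scaling. Where a group had 1 array, its spread was taken from that of the clones. The map of levels by array shows that 23 of the 26 genes were detected on iNSC in vivo, 22 on NSC in vivo and between 13 and 22 on each cultured array. The highest group level was that of iNSC in vivo for 20 genes, MEF for 4, and ESC and NSC in vivo for 1 each. By deposited signal alone, iNSC in vivo was highest for 13 genes, MEF and ESC for 6 each and iNSC for 1. No share over all genes is given beside these counts of the highest group, so they describe the 26 genes only.

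**Figure D1:**
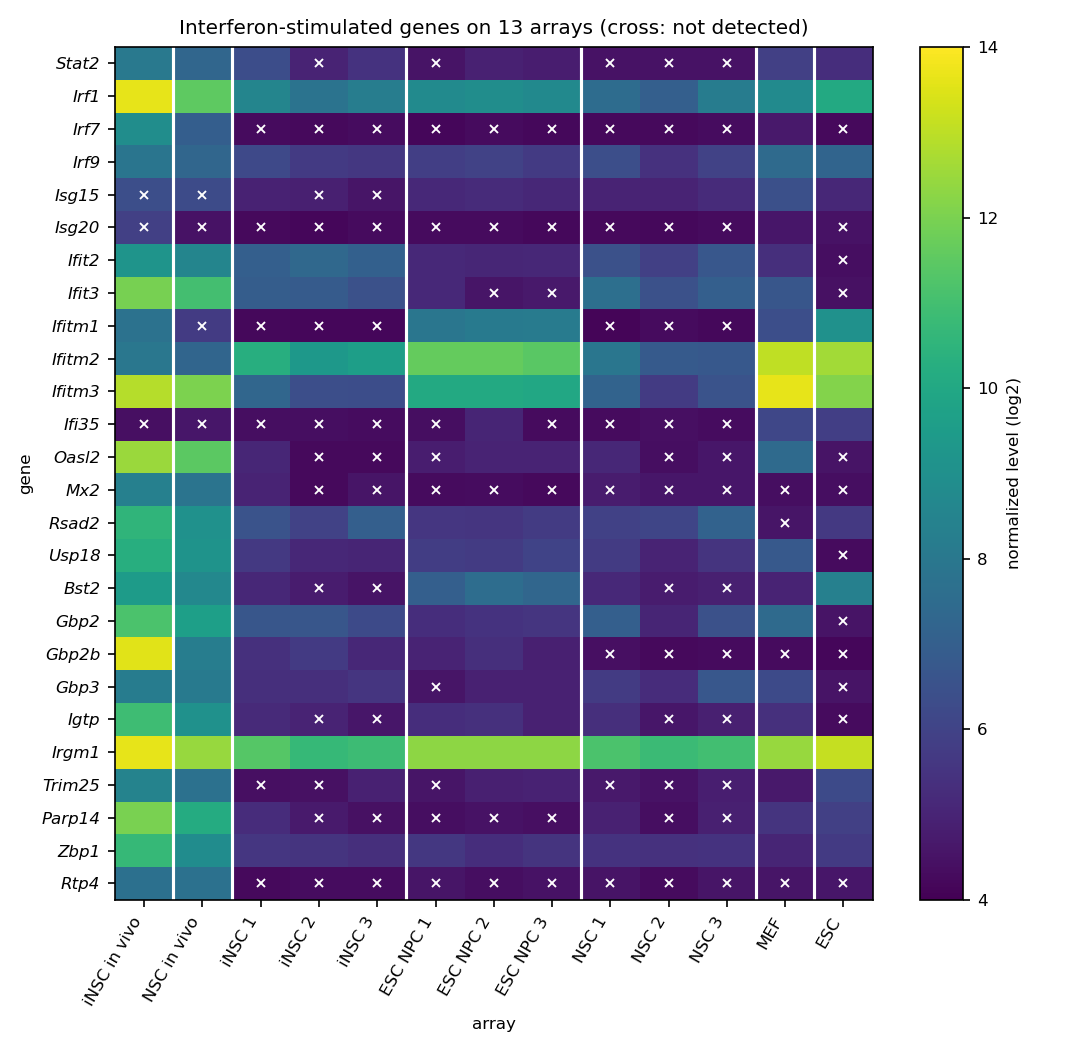
Normalized level (log2, colour scale) of the 26 tested interferon-stimulated genes (rows) on the 13 arrays (columns), with a cross where the probe was not detected. The 2 columns on the left, iNSC in vivo and NSC in vivo, are brightest in most rows, whereas the row of Ifitm2 is brightest in MEF and ESC.

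Most interferon-stimulated genes were higher on the in vivo arrays than in the clones in culture. For iNSC in vivo against iNSC, 24 of 26 genes were higher, with 22 of them detected in vivo, and 1 was lower, against 33.6% and 34.4% of all genes tested. For NSC in vivo against NSC, 23 of 26 were higher, with 21 detected in vivo, against 33.9% of all genes, and none was lower by limma at an adjusted or an unadjusted p under 0.05, against 34.1% of all genes. Both counts of higher genes include Rtp4, which was detected on the in vivo arrays alone and so entered the test through the groups where it was high. That of iNSC in vivo includes Isg15 and Isg20, which iNSC in vivo did not detect. That of NSC in vivo includes Isg15 and Ifitm1, which NSC in vivo did not detect. The median difference over the 26 genes was 3.94 in iNSC and 3.11 in NSC, and -0.03 and -0.04 over all genes. With median scaling 19 genes were higher and 1 lower in iNSC in vivo, and 18 were higher and 1 lower in NSC in vivo, against 14% and 14.9% of all genes higher and 53.1% and 54.3% lower. The deposited signal, which involves no scaling, was above that of all 3 clones for 19 of the 26 genes on iNSC in vivo (9.91% of all genes) and for 16 on NSC in vivo (8.61%). It was above every cultured array for 13 genes on iNSC in vivo and 9 on NSC in vivo, counts for which no share over all genes is given.

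**Figure D2:**
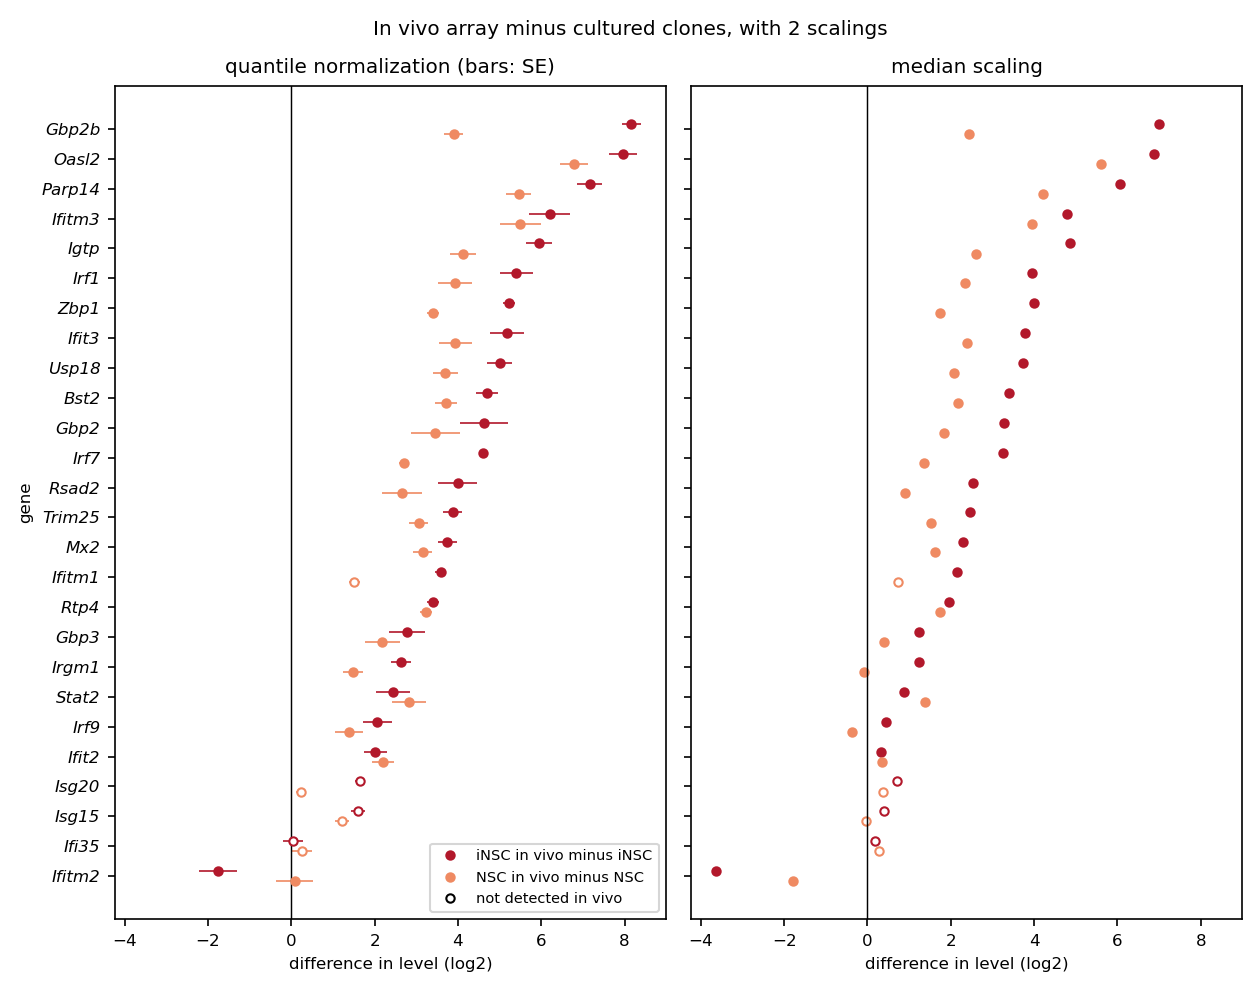
Difference in level (log2) between the in vivo array and the 3 clones in culture for each of the 26 genes, for iNSC (dark red) and NSC (orange), after quantile normalization (left, bars are standard errors) and after median scaling (right). Gbp2b, Oasl2, Parp14 and Ifitm3 lie far to the right under both scalings, and Irf9, Ifit2 and Isg15 come close to 0 under median scaling.

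Markers of other cell types moved with these results. Of 16 microglia and macrophage markers with a probe, 15 were detected on iNSC in vivo and 14 on NSC in vivo, against 0 on the iNSC clones and 0 or 1 on the NSC clones. Their summed level on a linear scale was 48500 on iNSC in vivo and 31100 on NSC in vivo, against 303 to 306 in iNSC and 301 to 306 in NSC. The defining markers Aif1, Cx3cr1, P2ry12 and Tmem119 were detected on both in vivo arrays, Ptprc only on iNSC in vivo and Itgam on neither. Endothelial and pericyte markers were detected for 9 of 12 on iNSC in vivo (summed level 5300, Cdh5 not detected) and 11 of 12 on NSC in vivo (26900), against 1 in iNSC (340 to 366) and 0 or 1 in NSC (254 to 273). Lymphocyte markers were detected for 4 of 8 on iNSC in vivo (2170) and 3 of 8 on NSC in vivo (526), including Cd3e and Cd3d but not Cd3g or Cd79a, and for none on the iNSC clones (80.9 to 81.9) or the NSC clones (77.6 to 82.8). Of 7 oligodendrocyte markers with a probe, 6 were detected on each in vivo array, with a summed level of 12700 on iNSC in vivo and 28900 on NSC in vivo, against 1 or 2 in iNSC (339 to 564) and 3 or 4 in NSC (1290 to 3480). Mbp, Mag and Mobp were among those detected in vivo and Mog was not. Astrocyte markers went mostly the other way, with 2 of 7 higher and 4 lower in iNSC in vivo (summed level 5360, against 11300 to 14600 in iNSC) and 1 higher and 5 lower in NSC in vivo (9210, against 16400 to 21500 in NSC). Of all genes, 33.6% were higher and 34.4% lower in iNSC in vivo, and 33.9% and 34.1% in NSC in vivo. Among the defining neural stem cell markers, iNSC in vivo detected Slc1a3 and Egfr but not Sox2, Nes or Fabp7, and NSC in vivo detected Slc1a3 alone, while all 5 were detected on every iNSC and NSC clone. The labelled cell type is thus only partly borne out by its markers on the in vivo arrays. The part of these other cells in the results that follow was not tested.

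**Figure D3:**
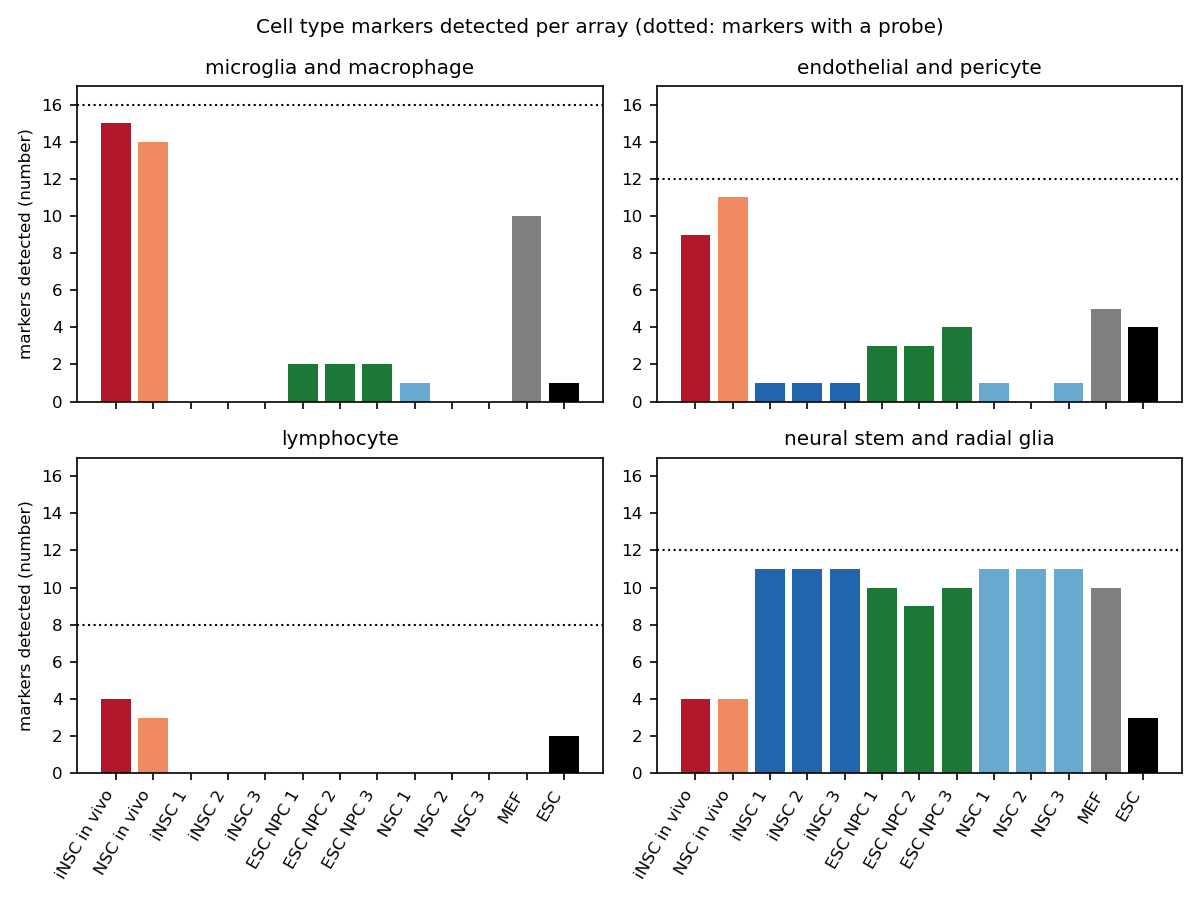
Number of markers detected (bars) on each of the 13 arrays for 4 cell type lists, with the number that had a probe as a dotted line. Microglia and endothelial bars are tall on the 2 in vivo arrays at the left, where the neural stem bars are short.

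The transcription factors of the response moved unevenly in vivo. Irf1, a factor that interferon gamma induces directly and whose GAS motif is shown above, had a signal of 5257 in iNSC in vivo, against 604, 377 and 499.6 in the iNSC clones, and of 1160.2 in NSC in vivo, against 362, 259.7 and 502 in the NSC clones. Both in vivo arrays lay above all clones of their kind, and the level differed by 5.40 ± 0.40 (SE, adjusted p = 1.75e-06) in iNSC and 3.93 ± 0.40 (SE, adjusted p = 1.67e-05) in NSC. With median scaling these differences were 3.95 and 2.35. Irf7, which amplifies type I interferon production, was detected at 219 in iNSC in vivo and 101 in NSC in vivo, and on none of the iNSC clones (95.8, 92.3 and 96.7) or NSC clones (95.5, 95.7 and 99.5). On the quantile-normalized scale it was at least 15.7-fold higher in iNSC in vivo (adjusted p = 1.13e-09) and at least 4.27-fold higher in NSC in vivo (adjusted p = 3.94e-08). With median scaling the log2 differences were 3.26 and 1.35, smaller than those folds. Stat2 and Irf9, both part of the ISRE-binding complex, gave little or no separation in the deposited signal. Stat2 had 144 in iNSC in vivo, against 186, 110.3 and 127 in iNSC, and 109 in NSC in vivo, against 105, 103 and 104.5 in NSC, where no clone detected it. Irf9 had 136 in iNSC in vivo, against 174, 134 and 134 in iNSC, and 109.7 in NSC in vivo, below all 3 NSC clones at 205, 132 and 161. The differences of Irf9, 2.07 in iNSC and 1.39 in NSC after quantile normalization, became 0.44 and -0.36 with median scaling, the second with its sign turned. Those of Stat2 were 2.45 and 2.82, or 0.87 and 1.39 with median scaling, where the first no longer passed (adjusted p = 0.144). With the mean of its probes, the difference of Irf9 in NSC in vivo was 0.50 and no longer passed (adjusted p = 0.135).

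The guanylate-binding proteins and immunity-related GTPases, which attack the membranes around intracellular pathogens and are classic targets of interferon gamma, included Gbp2b, the gene of the 26 with the largest difference in iNSC. Its upstream ISRE core is shown above, and it had a signal of 4869.8 in iNSC in vivo, against 128, 134 and 116 in the iNSC clones. In NSC in vivo its signal was 148, against 102, 94.9 and 98.2 in the NSC clones, none of which detected it. The signal in iNSC in vivo was far from that of every other array, and the level difference was 8.16 ± 0.23 (SE, adjusted p = 2.17e-09) in iNSC, with a bound of at least 10-fold higher in NSC in vivo (adjusted p = 3.04e-07). With median scaling the differences were 6.99 and 2.44. Igtp, an immunity-related GTPase whose upstream region holds both motifs, had 826 in iNSC in vivo, against 121, 111 and 104 in iNSC, and 226.5 in NSC in vivo, against 134, 106 and 115 in NSC. In each kind of cell the in vivo array lay above all 3 clones, of which only the first detected the gene, and the differences were 5.95 ± 0.31 (SE, adjusted p = 1.4e-07) and 4.12 ± 0.31 (SE, adjusted p = 1.8e-06), or 4.87 and 2.61 with median scaling. Gbp2, another guanylate-binding protein, had 1007 in iNSC in vivo, against 215, 205 and 171 in iNSC, and 322 in NSC in vivo, against 275, 117 and 198.5 in NSC, with differences of 4.62 ± 0.58 (SE, adjusted p = 6.98e-05) and 3.46 ± 0.58 (SE, adjusted p = 5e-04), or 3.29 and 1.84 with median scaling. Gbp3 overlapped more: 153 in iNSC in vivo lay above 127.5, 120.4 and 131 in iNSC, while 141 in NSC in vivo lay among 154, 125 and 224 in NSC. Its differences of 2.77 and 2.19 fell to 1.23 (adjusted p = 0.0509) and 0.41 (adjusted p = 0.484) with median scaling.

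Irgm1, a GTPase that regulates the other members of its family, was already bright in culture. Its signal was 5245 in iNSC in vivo, against 3465, 2261 and 2596 in iNSC, and 2067 in NSC in vivo, below the NSC clones at 3245, 2479 and 2701. The difference was 2.63 ± 0.24 (SE, adjusted p = 6.25e-06) in iNSC, or 1.23 with median scaling, and 1.48 ± 0.24 (SE, adjusted p = 0.000342) in NSC, which became -0.08 with median scaling. A dimmer probe of Irgm1 had a lower signal in vivo, at 105 in iNSC in vivo, against 326, 206 and 227 in iNSC, and 84.4 in NSC in vivo, against 226.5, 132 and 209 in NSC, and was detected on iNSC in vivo but not on NSC in vivo. With the mean of its probes the difference in NSC was 0.37 and no longer passed (adjusted p = 0.352). Mx2, a dynamin-like antiviral GTPase, was detected at 164 in iNSC in vivo and 127.5 in NSC in vivo, and in culture only on the first iNSC clone (115, 92.5 and 102 in iNSC, 113, 106.5 and 108 in NSC). Its difference was 3.75 ± 0.23 (SE, adjusted p = 4.17e-07) in iNSC, and the bound in NSC was at least 7.69-fold (adjusted p = 1.4e-06), with differences of 2.30 and 1.62 with median scaling.

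**Figure D4:**
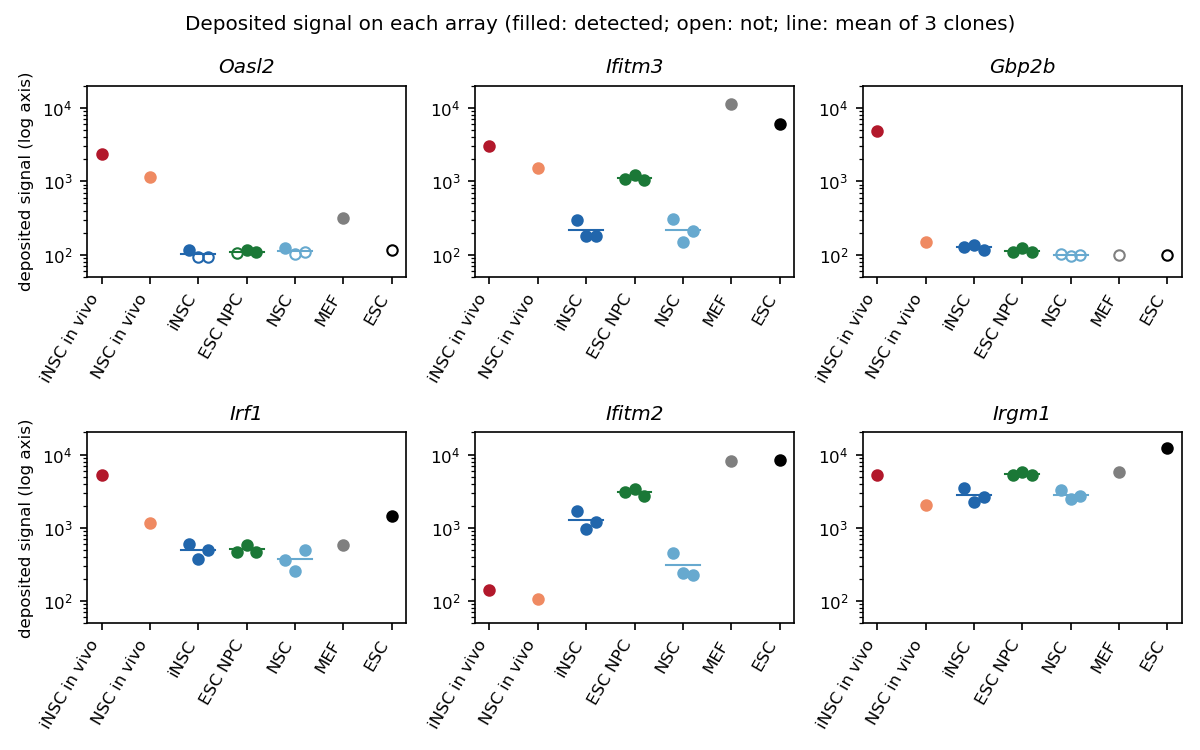
Deposited signal (log axis, background included) of 6 genes on each of the 13 arrays, grouped from iNSC in vivo at the left to ESC at the right, filled where detected, with a line at the mean of 3 clones. Oasl2 is highest on both in vivo arrays, Irf1 and Gbp2b are highest on iNSC in vivo, Ifitm3 is high in vivo and in ESC NPC, MEF and ESC, and Ifitm2 is lowest in vivo.

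Of the 5 genes grouped here as RNA and nucleic acid effectors, apart from the IFIT genes, Oasl2 and Zbp1 were higher in vivo. Isg20 was not detected there, and Oas1a and Ifih1 were detected on no array. Oasl2, a 2′-5′-oligoadenylate synthetase-like protein, had 2386 in iNSC in vivo, against 117, 93.0 and 92.8 in iNSC, where only the first clone detected it. In NSC in vivo it had 1143, against 124, 101 and 107 in NSC, again detected on the first clone only. The differences were 7.97 ± 0.34 (SE, adjusted p = 3.93e-08) and 6.79 ± 0.34 (SE, adjusted p = 1.23e-07), or 6.88 and 5.61 with median scaling. Zbp1, a sensor of Z-form nucleic acid that can start cell death, had 708 in iNSC in vivo, against 137, 127 and 123 in iNSC, and 203 in NSC in vivo, against 140.1, 131.5 and 136 in NSC. The clones were tightly grouped, and the differences were 5.22 ± 0.14 (SE, adjusted p = 2.18e-09) and 3.40 ± 0.14 (SE, adjusted p = 4.15e-08), or 3.99 and 1.75 with median scaling. Isg20, an exonuclease of RNA, was detected on MEF alone, with undetected signals of 88.1 in iNSC in vivo, against 94.8, 87.5 and 94.5 in iNSC, and 78.5 in NSC in vivo, against 96.1, 92.8 and 97.5 in NSC. No direction is given for it in vivo, although its fitted value passed in iNSC.

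Among the ISG15 system, which tags proteins with a ubiquitin-like modifier, the regulators were higher in vivo while the modifier could not be measured there. Isg15 itself was detected on neither in vivo array, with 93.4 in iNSC in vivo and 90.6 in NSC in vivo, against 114, 107 and 102 in iNSC and 119, 116 and 125 in NSC. Its fitted differences of 1.61 and 1.21 rest on levels under the lowest detected level of those arrays, and they became 0.40 and -0.04 with median scaling, so no direction is given. Usp18, the protease that removes ISG15 and dampens receptor signalling, had 519 in iNSC in vivo, against 140.5, 114 and 113 in iNSC, and 234 in NSC in vivo, against 154, 117 and 137 in NSC. Both in vivo arrays lay above all their clones, with differences of 5.01 ± 0.30 (SE, adjusted p = 3.61e-07) and 3.70 ± 0.30 (SE, adjusted p = 2.94e-06), or 3.73 and 2.09 with median scaling. Trim25, the ligase that activates the RNA sensor RIG-I, had 174 in iNSC in vivo, against 101, 98.5 and 110 in iNSC, and 123 in NSC in vivo, against 110.5, 103 and 113 in NSC, where no clone detected it. Its difference was 3.88 ± 0.23 (SE, adjusted p = 4.05e-07) in iNSC, with a bound of at least 7.13-fold in NSC (adjusted p = 2.16e-06), and the differences were 2.47 and 1.53 with median scaling.

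The IFIT proteins bind viral RNA ends and block its translation. Ifit3, whose 3 ISRE cores are shown above, had 1648 in iNSC in vivo, against 245, 227 and 189.9 in iNSC, and 825 in NSC in vivo, against 392, 202.5 and 261 in NSC. The in vivo arrays lay above all clones, by 5.18 ± 0.40 (SE, adjusted p = 2.2e-06) in iNSC and 3.94 ± 0.40 (SE, adjusted p = 1.56e-05) in NSC, or 3.78 and 2.38 with median scaling. The other 2 probes of Ifit3 did not follow: they were detected on neither in vivo array, at 77.8 and 78.9 in iNSC in vivo and 75.0 and 76.5 in NSC in vivo, against 111 to 140 across the iNSC and NSC clones. Ifit2 did not separate by signal, with 256 in iNSC in vivo, against 257, 292 and 252 in iNSC, and 174 in NSC in vivo, against 211, 157 and 226 in NSC. Its differences of 2.02 and 2.20 shrank to 0.32 (adjusted p = 0.382) and 0.36 (adjusted p = 0.309) with median scaling.

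The IFITM proteins sit in membranes and restrict the entry of enveloped viruses, and here they went opposite ways. Ifitm3 had 3037 in iNSC in vivo, against 294.5, 178 and 181 in iNSC, and 1533 in NSC in vivo, against 305, 148 and 208 in NSC. Both in vivo arrays were far above their clones, by 6.20 ± 0.50 (SE, adjusted p = 2.92e-06) and 5.50 ± 0.50 (SE, adjusted p = 6.87e-06), or 4.79 and 3.94 with median scaling. Their deposited signals lay below those of MEF (11527.5) and ESC (5990.4), but on the scale of normalized levels iNSC in vivo (12.88) lay above ESC (12.16). Ifitm2 was the 1 gene of the 26 that fell in iNSC in vivo, at 141 against 1688, 960.3 and 1188 in iNSC, with a difference of -1.76 ± 0.45 (SE, adjusted p = 0.00625), or -3.63 with median scaling. In NSC in vivo it had 108, also below the NSC clones at 459.8, 239 and 229, but the difference was 0.08 ± 0.45 (SE, adjusted p = 0.888) after quantile normalization and -1.79 with median scaling. Ifitm1 was detected at 129.8 in iNSC in vivo and on no iNSC clone (93.3, 88.4 and 87.4), at least 7.25-fold higher (adjusted p = 1.21e-08, difference 2.14 with median scaling), while neither NSC in vivo (86.2) nor any NSC clone (88.1, 97.6 and 93.3) detected it.

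The remaining effectors were mostly high in vivo. Parp14, an ADP-ribosyltransferase of the macrophage response, had 1689 in iNSC in vivo, against 124, 105 and 99.7 in iNSC, and 474 in NSC in vivo, against 117, 100 and 114 in NSC. Each in vivo array exceeded all its clones, of which only the first detected the gene, with differences of 7.17 ± 0.30 (SE, adjusted p = 3.22e-08) and 5.46 ± 0.30 (SE, adjusted p = 2.07e-07), or 6.07 and 4.22 with median scaling. Bst2, or tetherin, which holds budding virus at the cell surface, had 313 in iNSC in vivo, against 118, 105 and 102 in iNSC, and 181.5 in NSC in vivo, against 126, 109.9 and 114 in NSC, with differences of 4.70 ± 0.26 (SE, adjusted p = 2.51e-07) and 3.72 ± 0.26 (SE, adjusted p = 1.29e-06), or 3.41 and 2.17 with median scaling. Rsad2, or viperin, which makes a chain-terminating nucleotide, had 618 in iNSC in vivo, against 203, 150.5 and 249.7 in iNSC, and it was higher (adjusted p = 4.28e-05), by 2.54 with median scaling. In NSC in vivo its 227 lay within the range of the NSC clones, 167, 169 and 278, and its difference of 2.66 became 0.90 with median scaling (adjusted p = 0.152). Rtp4, a chaperone of receptor trafficking, was detected on the in vivo arrays alone, at 126 in iNSC in vivo, against undetected signals of 95.2, 94.9 and 96.7 in iNSC, and at 123 in NSC in vivo, against 106, 97.1 and 107 in NSC. It passed the detection filter only through those arrays, so it had to differ, and its values are given as a description. Ifi35 was detected on neither in vivo array.

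Between the in vivo arrays, with 1 array against 1 and no test, iNSC in vivo was at least 2-fold above NSC in vivo for 13 of 26 genes, 12 of them detected, and at least 2-fold below for none. Among all genes 9.18% were at least 2-fold higher and 9.21% at least 2-fold lower. The median difference in log2 level was 0.97 over the 26 genes and -0.01 over all genes. The deposited signal was higher on iNSC in vivo for 25 of the 26 genes, with no share over all genes given. The gap in log2 level was widest for Gbp2b (5.34), Irf1 (2.10), Ifitm1 (2.05, not detected on NSC in vivo), Irf7 (1.91) and Zbp1 (1.85). Rtp4 differed by -0.01 and Gbp3 by 0.09. Gaps of this kind cannot be told apart from a difference between 2 single samples, and the marker sums given above also differed between both arrays, higher on iNSC in vivo for lymphocytes and microglia and lower there for endothelial cells and oligodendrocytes. Single microglia markers went both ways. P2ry12 had a level of 8.64 in iNSC in vivo, against 10.16 in NSC in vivo, and Tmem119 had 9.45 in iNSC in vivo, against 10.70 in NSC in vivo. Aif1 had 8.95 in iNSC in vivo, against 7.96 in NSC in vivo, and Ptprc had 7.18, against an undetected 5.86. Cx3cr1 was nearly level, at 8.10 in iNSC in vivo and 8.08 in NSC in vivo.

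The difference between culture and in vivo was larger in iNSC than in NSC for 9 of 26 genes, as tested by the contrast of both differences, against 13.5% of all genes. It was smaller for none by limma at an adjusted p under 0.05, against 14.3% of all genes, and for 1 gene, Ifitm2 (-1.85, adjusted p = 0.0602), at an unadjusted p under 0.05. Gbp2b led with 4.26 ± 0.32 (SE, adjusted p = 1.46e-05), followed by Ifitm1 with 2.08 ± 0.18 (SE, adjusted p = 3.5e-05), Irf7 with 1.90 ± 0.16 (SE, adjusted p = 2.97e-05), Igtp with 1.84 ± 0.44 (SE, adjusted p = 0.0125) and Zbp1 with 1.82 ± 0.20 (SE, adjusted p = 0.000169). Parp14, Isg20, Usp18 and Irgm1 gave 1.71, 1.41, 1.31 and 1.15, with adjusted p from 0.000184 to 0.046, and Isg20 was detected on neither in vivo array. With median scaling 7 genes were higher and 0 lower, against 9.1% and 7.32% of all genes, and Isg20 (0.34, adjusted p = 0.237) and Usp18 (1.63, adjusted p = 0.0681) no longer passed. On the deposited log2 values, Igtp (1.85, adjusted p = 0.202), Parp14 (1.59, adjusted p = 0.34), Usp18 (1.44, adjusted p = 0.203) and Irgm1 (1.15, adjusted p = 0.0615) no longer passed. Irgm1 also lost the call with the mean of its probes (0.97, adjusted p = 0.167), and Usp18 with no filter (adjusted p = 0.0646). For Oasl2 (1.18, adjusted p = 0.104), Ifitm3 (0.69, adjusted p = 0.524) and Ifit2 (-0.18, adjusted p = 0.787) the test did not pass. Gbp2b, Ifitm1, Irf7 and Zbp1 kept this call in all alternatives in which they could be tested. Of these, Irf7 was detected on no iNSC or NSC clone, and Ifitm1 neither there nor on NSC in vivo. Gbp2b was detected on no NSC clone. The spread among such clones is one of background signals and does not measure how far expression varies. Usp18 lost it without iNSC clone 2 or 3 or NSC clone 1 or 3 (adjusted p from 0.065 to 0.0823), and Irgm1 without iNSC clone 3 (0.0593) or NSC clone 1 (0.0538). Without NSC clone 2, Irf1 (1.76), Gbp2 (1.72) and Ifit3 (1.53) passed as well, with adjusted p of 0.02, 0.00685 and 0.0331. Without iNSC clone 1, Oasl2 (1.45), Bst2 (1.14) and Mx2 (0.78) passed, with adjusted p of 0.0192, 0.0405 and 0.0304, and without iNSC clone 3 so did Trim25 (0.99, adjusted p = 0.0347). Ifitm2 passed in the other direction without iNSC clone 2 (-2.05, adjusted p = 0.0454) or NSC clone 1 (-2.22, adjusted p = 0.00755). Of the lymphocyte markers tested, 4 of 4 also differed more in iNSC than in NSC, against 13.5% of all genes, among them Cd3d (2.35) and Nkg7 (1.80). No iNSC or NSC clone detected any of these markers. In culture only the ESC array detected any of the 4, with 2 detected there, Cd3e among them. The others, with Cd3d among them, were detected on the in vivo arrays alone. They so entered the test through the groups where they were high. The count is given as a description, and the part of lymphocytes in the result was not tested.

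Other genes of the pathway were counted in the same fit. Of 19 interferon genes, 17 had a probe and 4 were tested. Ifng, the gene of interferon gamma, was detected on both in vivo arrays and no iNSC or NSC clone, at least 29.7-fold higher in iNSC in vivo (adjusted p = 6.64e-10) and at least 5.15-fold higher in NSC in vivo (adjusted p = 3.24e-08). Its difference was larger in iNSC by 2.53 ± 0.17 (SE, adjusted p = 9.26e-06). Of the arrays in these comparisons only the in vivo arrays detected Ifng, so its values are given as a description. Ifna6 was the other interferon gene detected in vivo, where its deposited signal was lower than in culture, at 110 in iNSC in vivo, against a mean of 123 in iNSC, and 108.9 in NSC in vivo, against 134.4 in NSC. After quantile normalization its difference was 1.95 in iNSC and 1.86 in NSC, so its direction depends on the scale. Beside the counts that follow, 33.6% of all genes were higher and 34.4% lower in iNSC in vivo, and 33.9% and 34.1% in NSC in vivo. Among 12 tested genes for receptors and JAK-STAT signalling, 7 were higher and 3 lower in iNSC in vivo, and 6 higher and 4 lower in NSC in vivo. Ifngr2, a chain of the interferon gamma receptor, rose by 2.85 and 3.13, and Tyk2 by 3.01 in iNSC in vivo, while Stat3 had a difference of -2.65 in NSC in vivo. Of 16 tested nucleic acid sensing genes, 11 were higher and 1 lower in iNSC in vivo and 9 higher in NSC in vivo. Of these higher genes, 8 were detected on iNSC in vivo and 7 on NSC in vivo. Tlr7, an endosomal RNA receptor, was at least 18.4-fold and 15.1-fold higher. No iNSC or NSC clone detected Tlr7, so its folds are given as a description.

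Of 44 interferon-stimulated genes outside the 33, 25 were tested, and 23 were higher in iNSC in vivo (median 3.45) and 21 in NSC in vivo (median 2.76). All of the 23 were detected on iNSC in vivo, but only 16 of the 21 on NSC in vivo. Among all genes 33.6% and 33.9% were higher in these comparisons, and 34.4% and 34.1% lower. Ifi47, a GTPase of the interferon gamma response, was at least 101-fold higher in iNSC in vivo and at least 25.5-fold higher in NSC in vivo, and Uba7, the enzyme that activates ISG15, at least 179-fold and 82.6-fold. No iNSC or NSC clone detected Ifi47 or Uba7, so these folds are given as a description. Cxcl10, a chemokine that attracts T cells, differed more in iNSC than in NSC by 3.34 ± 0.18 (SE, adjusted p = 3.12e-06). In the MHC class I and immunoproteasome list, 12 of 13 tested genes were higher and 1 lower in iNSC in vivo, and 11 higher and 1 lower in NSC in vivo. Of these higher genes, 10 were detected on iNSC in vivo and 8 on NSC in vivo. Psmb9, an immunoproteasome subunit, rose by 6.65 and 5.02, whereas the proteasome activator Psme2, detected on all iNSC and NSC clones, was not detected in vivo and was lower by at least 2.22-fold and 2.3-fold.

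In culture fewer of the genes differed, and their number and direction varied with the comparison. The comparison of iNSC with NSC sets cells converted from fibroblasts beside neural stem cells. Here 4 of 26 genes were higher in iNSC, against 10.3% of all genes, and none was lower by limma at an adjusted or an unadjusted p under 0.05, against 9.42% of all genes. The median difference was -0.01. Markers of other cell types also differed, with 0 of 6 oligodendrocyte markers higher and 3 lower in iNSC (median -1.59), 0 of 7 neuron markers higher and 4 lower (median -0.79), and 4 of 7 astrocyte markers higher and 2 lower (median 0.71). Mbp, a myelin protein, was detected on no iNSC clone and had a signal of 1209, 650.5 and 139.1 in the NSC clones. The part of such cells in the result was not tested. Ifitm2 had 1688, 960.3 and 1188 in the iNSC clones, against 459.8, 239 and 229 in the NSC clones, with no overlap and a difference of 2.57 ± 0.32 (SE, adjusted p = 0.000521). Gbp2b was detected on all 3 iNSC clones (128, 134 and 116) and on none of the NSC clones (102, 94.9 and 98.2), at least 1.42-fold higher (adjusted p = 0.00135). Ifit2 had 257, 292 and 252 in iNSC, against 211, 157 and 226 in NSC, a difference of 0.78 ± 0.19 (SE, adjusted p = 0.0189). Stat2 was detected on 2 of 3 iNSC clones (186, 110.3 and 127) and on no NSC clone (105, 103 and 104.5), at least 1.64-fold higher (adjusted p = 0.0239). In a fit of these 2 groups alone, Ifit2 (adjusted p = 0.07) and Stat2 (adjusted p = 0.0752) no longer passed. Without iNSC clone 2, Ifit2 had an adjusted p of 0.0627, and Stat2 had 0.051 without iNSC clone 3 and 0.0634 without NSC clone 1. Outside the 33 genes, 6 of 25 other interferon-stimulated genes were higher and 1 lower, with Ifi27, a mitochondrial protein, at 3.02 ± 0.17 (SE, adjusted p = 2.92e-06) and Gbp7 lower by at least 1.24-fold, and B2m, the light chain of MHC class I, was higher by 1.07.

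**Figure D5:**
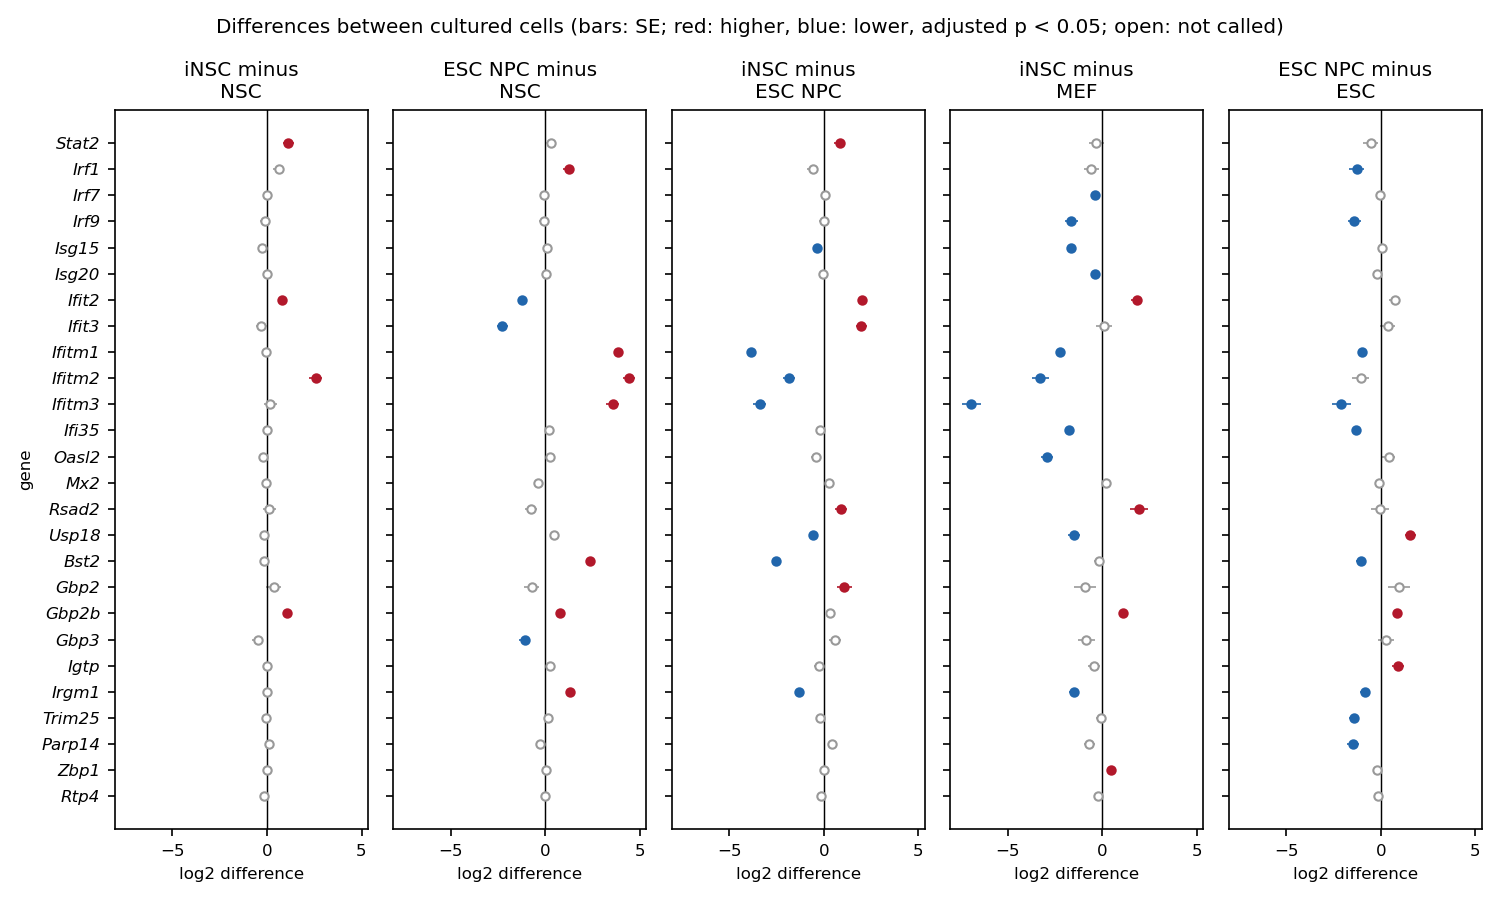
Difference in level (log2, with standard error) of the 26 genes in 5 comparisons of cultured cells, filled red where higher and blue where lower at an adjusted p under 0.05 and open otherwise. Ifitm1, Ifitm2 and Ifitm3 stand out from the other rows, to the right in ESC NPC against NSC and to the left in iNSC against ESC NPC and against MEF.

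Against NSC, 7 of 26 genes were higher in ESC NPC and 3 lower, beside 27.8% and 29.6% of all genes, so the shares were at or below those of the array at large. The 3 IFITM genes measured were higher in ESC NPC. Ifitm3 had 1083.5, 1217 and 1031 in the ESC NPC clones, against 305, 148 and 208 in the NSC clones, a difference of 3.56 ± 0.35 (SE, adjusted p = 2.41e-05). Ifitm2 had 3129, 3432.5 and 2750.3 in ESC NPC, against 459.8, 239 and 229 in NSC (4.40, adjusted p = 3.44e-06). Ifitm1 was detected on all 3 ESC NPC clones (306, 367 and 342) and on no NSC clone (88.1, 97.6 and 93.3), at least 8.97-fold higher (adjusted p = 2.42e-09). Bst2 had 200, 285 and 229 in ESC NPC, against 126, 109.9 and 114 in NSC (2.38 ± 0.19 SE, adjusted p = 5.66e-06), and Irf1 had 474, 587 and 465, against 362, 259.7 and 502 in NSC (1.23 ± 0.29 SE, adjusted p = 0.00477), though the signals of Irf1 overlapped and its difference was 0.73 with median scaling (adjusted p = 0.0626). Both IFIT genes measured were lower. Ifit3 had 113, 105 and 104 in ESC NPC, against 392, 202.5 and 261 in NSC (-2.27 ± 0.28 SE, adjusted p = 0.000106), and Ifit2 had 113, 116 and 112, against 211, 157 and 226 in NSC (-1.25 ± 0.19 SE, adjusted p = 0.000388). Gbp3 was also lower (-1.10), Gbp2b was higher by at least 1.13-fold, and Irgm1 was higher (1.31) by its bright probe but not by the mean of its probes (0.05). Gbp2 gave -0.72 (adjusted p = 0.168), and without NSC clone 2 it passed, at -1.29 (adjusted p = 0.000507). Rsad2 (-0.76, adjusted p = 0.0773) did not pass. ESC NPC detected all 11 pluripotency markers with a probe (summed level 10300 to 10700), against 1 or 2 in NSC (244 to 257), together with all 5 defining neural stem markers. They also detected 6 of 11 fibroblast markers (2080 to 2230) and 2 of 16 microglia markers (783 to 888, Tmem119 alone of the 6 defining ones), and the part of such cells in these results was not tested.

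The comparison of iNSC with ESC NPC shares its ESC NPC arrays with the comparison just given, and its values stand beside it as its own. In iNSC 5 of 26 genes were higher and 7 lower, beside 31.4% and 28.9% of all genes. Ifit2, at 257, 292 and 252 in iNSC against 113, 116 and 112 in ESC NPC, was higher by 2.04 ± 0.19 (SE, adjusted p = 1.49e-05), and Ifit3 by 1.98 ± 0.28 (SE, adjusted p = 0.000229). Ifitm3, at 294.5, 178 and 181 in iNSC against 1083.5, 1217 and 1031 in ESC NPC, was lower (-3.38 ± 0.35 SE, adjusted p = 2.9e-05), as were Ifitm2 (-1.83, adjusted p = 0.00081), Bst2 (-2.51, adjusted p = 3.41e-06) and Ifitm1 (at least 8.75-fold, adjusted p = 2.27e-09). These 6 genes kept their calls in all alternatives in which they could be tested. Stat2, Rsad2 and Gbp2 (higher) and Isg15 and Usp18 (lower) passed with adjusted p from 0.0252 to 0.0454, and each lost its call in several alternatives. Gbp2 lost it without any 1 of the iNSC or ESC NPC clones (adjusted p from 0.058 to 0.117), Rsad2 and Usp18 without 5 of these 6 clones, Isg15 without iNSC clone 3 or any ESC NPC clone (from 0.0525 to 0.0882), and Stat2 without ESC NPC clone 1 (0.103) or clone 3 (0.065). Without ESC NPC clone 1 or clone 3, 2 genes were higher, and 3 without iNSC clone 1. Irgm1, lower by its bright probe (-1.33), was 0.35 by the mean of its probes. Among receptor and JAK-STAT genes 9 of 12 were higher and 1 lower in iNSC, beside the 31.4% and 28.9% of all genes. Jak2 was at 1.47 ± 0.15 (SE, adjusted p = 2.73e-05) and Ifngr1 at 0.96 ± 0.12 (SE, adjusted p = 8.01e-05).

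Against MEF, the kind of cell that iNSC were induced from, 4 of 26 genes were higher in iNSC and 11 lower, beside 28% and 21.9% of all genes, and the median difference was -0.51, against 0.09 over all genes. The 11 include Isg20, which entered the test only through MEF, where it was detected (111), so it had to differ. Ifitm3 showed the widest difference: 294.5, 178 and 181 in the iNSC clones, against 11527.5 in MEF (-6.92 ± 0.50 SE, adjusted p = 4.25e-06). Ifitm2 had 1688, 960.3 and 1188 in iNSC, against 8186 in MEF (-3.28 ± 0.45 SE, adjusted p = 0.000264), and Ifitm1, undetected in iNSC, was lower by at least 2.79-fold (adjusted p = 9.4e-07). Oasl2 had 117, 93.0 and 92.8 in iNSC, against 315 in MEF (-2.92 ± 0.34 SE, adjusted p = 9.18e-05). Isg15 was brightest in MEF, at 209, against 114, 107 and 102 in iNSC (-1.65, adjusted p = 4.78e-05), and Irf9 (-1.64) and Usp18 (-1.50) were also lower in iNSC. Ifi35, an interferon-induced protein, was detected on MEF (185) and no iNSC clone, lower in iNSC by at least 2.27-fold (adjusted p = 0.000258). Irf7, undetected in iNSC, lay too near the detection floor of MEF for a fold, and Irgm1 was lower by its bright probe (-1.50) but not by the mean of its probes (-0.61, adjusted p = 0.157). In the other direction, Ifit2 was higher in iNSC by 1.81 ± 0.27 (SE, adjusted p = 0.000443), Rsad2 by at least 3.82-fold (adjusted p = 0.00689), Gbp2b by at least 1.74-fold (adjusted p = 0.00291) and Zbp1 by 0.44 (adjusted p = 0.0307). Without iNSC clone 1 or clone 2, Zbp1 had an adjusted p of 0.0652 or 0.0562. The MEF array detected 10 of 16 microglia and macrophage markers (summed level 1420, Cx3cr1, P2ry12, Itgam and Ptprc not detected), against 0 in iNSC (303 to 306), and also all 5 defining neural stem markers, and their part in the result was not tested. Of 25 other interferon-stimulated genes 1 was higher and 15 lower in iNSC, with Lgals3bp at least 29.1-fold and Lgals9 at least 11.2-fold lower, both galectin-related secreted proteins.

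ESC NPC were also compared with ESC, the kind of cell they were differentiated from. In ESC NPC 3 of 26 genes were higher and 9 lower, beside 22.2% and 22.5% of all genes. Ifitm3 had 1083.5, 1217 and 1031 in the ESC NPC clones, against 5990.4 in ESC (-2.09 ± 0.50 SE, adjusted p = 0.00744), and Ifitm1 had 306, 367 and 342, against 764 in ESC (-0.99 ± 0.13 SE, adjusted p = 0.000224). Ifitm2 gave -1.06 (adjusted p = 0.0881). Irf9 (-1.40), Trim25 (-1.43), Ifi35 (-1.29), Bst2 (-1.03), Irgm1 (-0.84) and Irf1 (-1.26) were also lower, with adjusted p up to 0.0299, and Parp14, undetected in ESC NPC, by at least 2.1-fold (adjusted p = 0.00319). The 3 higher genes were all undetected on the ESC array: Usp18 by at least 1.78-fold (adjusted p = 0.00219), Igtp by at least 1.14-fold (adjusted p = 0.0384) and Gbp2b by at least 1.03-fold (adjusted p = 0.011). Irf1 lost its call without any 1 of the ESC NPC clones (adjusted p from 0.0513 to 0.0676), and Igtp without clone 1 or clone 2 (0.0866 and 0.0913). Of sensing genes, 5 of 16 were lower, beside the 22.5% of all genes. Aim2, a sensor of cytosolic DNA, was at -3.02 ± 0.14 (SE, adjusted p = 4.63e-07) and Ddx58, the RNA sensor RIG-I, at -2.43 ± 0.18 (SE, adjusted p = 7.48e-06). Fewer interferon-stimulated genes were detected on ESC (14 of 26) than on the ESC NPC clones (16 to 20), as were fewer of all probes (41.1%, against 43.3% to 45.8%).

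The clones of NSC and iNSC were less alike in these genes than in others. In NSC, the median SD of level among the 13 genes detected on all 3 clones was 0.59, against 0.19 over 7245 genes detected on all 3. In iNSC it was 0.33 over 13 genes, against 0.17 over 7172, and in ESC NPC 0.11 over 15 genes, against 0.10 over 7628. NSC clone 2 was lowest in 10 of the 13 genes and highest in none. Gbp2 spread furthest, with 275, 117 and 198.5 in NSC clones 1 to 3 (SD 1.02), followed by Gbp3 (SD 0.74) and Ifitm3 (SD 0.73), while Zbp1 was nearly level (SD 0.04). In iNSC, clone 1 was highest in 8 of 13 genes, and in ESC NPC no clone was highest in more than 7 of 15. These are descriptions of 3 samples each, and the genes are not independent of one another. No share over all genes is given beside the counts of highest and lowest clones. The genes set beside each other for their SD were not matched for level.

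Of the genes not reported above, Ifi44 had no probe here. Ifit1, Oas1a, Mx1, Iigp1, Ifih1 and Xaf1 had probes that no array detected, including the in vivo arrays that detected Ifit3, Oasl2, Mx2 and Igtp, and no level is given for them. A dimmer probe of Irf1 lay above all clones of its kind on both in vivo arrays (1436 in iNSC in vivo, against 184, 139 and 159 in iNSC, and 292.5 in NSC in vivo, against 142, 127 and 155 in NSC). One of Gbp3 did so in iNSC in vivo but not in NSC in vivo (191 in iNSC in vivo, against 110.2, 112 and 117 in iNSC, and 144 in NSC in vivo, against 132, 107 and 196 in NSC). A further probe of Usp18 was above the iNSC clones in iNSC in vivo (125, against 114, 97.6 and 96.6) and below the NSC clones in NSC in vivo (93.6, against 114.5, 97.7 and 112.5). One of Ifit2 did the same (304 in iNSC in vivo, against 247, 269.6 and 273 in iNSC, and 134 in NSC in vivo, against 198, 168.5 and 240.1 in NSC). One of Oasl2 was detected on iNSC in vivo (103, against 96.8, 92.3 and 92.5 in iNSC) but not on NSC in vivo (90.2, against 104, 98.3 and 97.2 in NSC). Further probes of Irf9 and Ifitm1 were detected on neither in vivo array. The 3 other probes of Irf1 were detected on neither in vivo array.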

How the data were processed

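RNA of 13 samples was measured on Illumina mouse bead arrays. The deposited bead intensities are not normalized and stand beside deposited detection p-values, per the file headers, and the deposited series values are log2 values. BeadStudio 3.2, RMA and lumi are named for the series, per the submitters' processing notes, and their order is not given in the sources used here. Direction and scale were checked by correlating both (r = 0.978 on every array).

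Intensities were corrected by limma's normexp method with the detection p-values (offset 16), put on a log2 scale and quantile normalized. Probes detected at a p under 0.01 on at least 1 array were kept, and the probe with the highest mean stands for its gene. Of 25697 probes 23978 have 1 gene symbol and 1719 are unnamed here, which left 10923 genes. One limma fit of 7 group means (limma 3.58.1, R 4.3.3, 6 residual and 3.10 prior degrees of freedom) gave all differences, two-sided, with Benjamini-Hochberg adjusted p-values over all genes and a threshold of 0.05. The fit was tested on simulated data. Where every array of the lower group failed detection, "at least" folds use the mean of the higher of each array's lowest detected level and the probe's own level. Both levels are quantile normalized, so the folds are no bounds under another scaling.

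The genes and gene lists were chosen with earlier results of these data known. All 33 genes may be named. From each other list, up to 4 genes per comparison with the smallest unadjusted p are named, and the markers that define a cell type. For the in vivo pair, the 5 genes with the largest differences each way among those detected on either array are named, with 1 (Rtp4) on the lower side. Clone numbers in the labels were checked as pairs: deviations of same-numbered iNSC and NSC clones correlated at 0.211, 0.503 and 0.276, while same-numbered pairs with ESC NPC correlated between -0.042 and 0.115. Differently numbered iNSC and NSC clones correlated between -0.403 and 0.235. The highest of these, iNSC clone 1 with NSC clone 3, lay above the pair of clones numbered 1. The values given come from the fit without pairs. A fit with clone number as a block was an alternative for iNSC, NSC and ESC NPC, could not be fitted for groups of 1 array, and changed no call of iNSC against NSC. The number of arrays limits the precision, and a group of 1 array has no spread of its own. Background correction, scaling, filter, probe choice, prior, groups fitted, replicate block and each clone left out were varied.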

Additional observations from a re-analysis of the deposited data

Results flagged for a closer look

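The difference between the in vivo array and the clones was larger in iNSC than in NSC for 9 of the 26 interferon-stimulated genes, by limma's test of the contrast between both differences, against 13.5% of all genes. The contrast was 4.26 for Gbp2b, 2.08 for Ifitm1, 1.90 for Irf7, 1.84 for Igtp, 1.82 for Zbp1, 1.71 for Parp14, 1.41 for Isg20, 1.31 for Usp18 and 1.15 for Irgm1, on the log2 scale. Ifitm1 was detected on iNSC in vivo and not on NSC in vivo, and Isg20 on neither. No iNSC or NSC clone detected Ifitm1, Irf7 or Isg20, so their spread among those clones is one of background signals. With median scaling Isg20 gave 0.34 (adjusted p = 0.237) and Usp18 1.63 (adjusted p = 0.0681) in limma, and neither passed. Each contrast rests on 1 array per in vivo condition. No group held 4 or more arrays, so no single array could be tested against the rest of its group.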

How the results depend on the processing

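All counts here are of interferon-stimulated genes past an adjusted p under 0.05 in limma. Of the genes called, 20 of 25 kept their call in all alternatives that could test them for iNSC in vivo against iNSC, 17 of 23 for NSC in vivo against NSC, 4 of 9 for the contrast of both, 2 of 4 for iNSC against NSC, 8 of 10 for ESC NPC against NSC, 6 of 12 for iNSC against ESC NPC, 11 of 15 for iNSC against MEF and 8 of 12 for ESC NPC against ESC. For iNSC against ESC NPC, genes higher numbered 2 with no background correction and 2 with no filter, against 5 in the report. The contrast of both in vivo differences gave 17 higher with no background correction, 5 with the deposited log2 values and 1 lower with no filter. The setting with no filter also tests genes that no array detected, and the lower gene is not named here. With median scaling, 1 gene (Ifitm2) was lower in NSC in vivo, and Irf9 (-0.36), Irgm1 (-0.08) and Isg15 (-0.04) turned their sign there. With the mean of a gene's probes, Irgm1 turned to 0.35 for iNSC against ESC NPC. With 2 groups fitted alone, 2 genes were higher in iNSC than NSC. Except where the probes of Irgm1 differ, the cause was not tested.

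Leaving out each clone in turn gave 2 to 5 higher genes for iNSC against ESC NPC, 3 to 5 for iNSC against NSC, 7 to 12 for the contrast of both in vivo differences with 0 to 1 lower, 24 for iNSC in vivo and 23 for NSC in vivo. With the replicate block, iNSC against NSC gave 4 higher, iNSC against ESC NPC 5 higher and 7 lower, and ESC NPC against NSC 7 higher and 4 lower (Rsad2 added, adjusted p = 0.0185), and it changed no other call. Same-numbered clones of ESC NPC and NSC showed no pairing (r from -0.042 to -0.00918), so they share only a number. The block could not be fitted for groups of 1 array. An alternative chosen after seeing the data kept genes detected on every array compared, which tests fewer genes: 12 of 13 were then higher in iNSC in vivo (41.2% of all genes) and 11 of 12 in NSC in vivo (42.6%). It gave 2 of 12 higher for iNSC against NSC (12.1%), 4 higher and 1 lower of 11 for ESC NPC against NSC (30.1% and 36.5%), 3 higher and 4 lower of 11 for iNSC against ESC NPC (39.1% and 30.6%), 2 higher and 5 lower of 11 for iNSC against MEF (39.1% and 19.5%) and 0 higher of 10 for ESC NPC against ESC (23.2%). Low signal over background limits the in vivo arrays, where 26.2% and 26.7% of probes were detected.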
